A study of Mus musculus with 6 samples.

Results

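In dendritic cells carrying the control adenovirus AdOVA, 80 probe sets for 69 genes had low signals, and with AdIkBa-SR, an adenovirus for the super-repressor of NF-kB, the same probe sets had signals at least 1.7 times those with AdOVA. The members were chosen by these signals and by gene symbol. Signals under 53.5, the 40th percentile of all signals on the arrays, were first set to 53.5. A probe set with 1 gene symbol was kept when its AdOVA signal was at most 0.5 times the signal without virus and its AdIkBa-SR signal at least 1.7 times the AdOVA signal, both in cells given TNFa and in cells without it. Of the probe sets that met this, 28 were left out by symbol, for ribosomal proteins, the respiratory chain, the proteasome, initiation factors, chemokines and some cell cycle and surface genes. The 80 that remained stand among 20380 probe sets with 1 symbol and 22690 on the array. Since all 6 arrays entered the choice, each virus difference given for them is a description and carries no test.

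RNA was measured on 6 Affymetrix MOE430A arrays, on which a probe set is a group of short probes against one transcript, and the values are linear signals in arbitrary units. Each of the 6 groups had 1 array: AdIkBa-SR+TNFa, AdOVA+TNFa, TNFa alone, AdIkBa-SR, AdOVA and untreated. In every group the cells were grown from bone marrow of 13-week-old female CAR-transgenic mice and differentiated for 7 days with GM-CSF at 250 U/ml. CAR is the receptor through which adenovirus enters a cell, and the sources used here do not name the promoter of this transgene. Virus was given at 1500 particles per cell for 2 h and the cells were kept for 18 h more, and TNFa was added at 50 ng/ml for 4 h. The labels record no mock transduction, so virus and transduction procedure cannot be told apart in the comparisons with cells left without virus. The labels do not settle whether the marrow came from 1 mouse or several, and with 1 array per group no difference has a replicate check.

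The cells were checked against 12 measured dendritic cell markers. Cst3, Cd74 and Itgam were bright on every array, with lowest signals of 3278, 1515 and 1388, whereas Zbtb46, Cd209a and Ciita stayed between 11.3 and 146.7. Nfkbia, the mouse gene for IkBa itself, read 8571 (AdIkBa-SR), 9729 (AdOVA) and 10697 (no virus) with TNFa, and 10118 (AdIkBa-SR), 16336 (AdOVA) and 10622 (no virus) without TNFa, and the sources used here do not say whether its probe set also reads the super-repressor. Tnfaip3, a target of NF-kB in many cell types, read 224 with AdIkBa-SR+TNFa, 1462 with AdOVA+TNFa and 189 with TNFa alone, and 110.3 with AdIkBa-SR, 512 with AdOVA and 162 untreated. Tnfaip3 was highest on the AdOVA arrays and lower on those with AdIkBa-SR. The arrays differed in handling. Fluidics records give 0 wash cycles and a stain of 420 s for the AdIkBa-SR array, against 10 and 4 cycles and a stain of 600 s for the other arrays. The untreated, TNFa and AdOVA arrays share one hybridization record and the other arrays share another, so AdOVA over untreated, AdIkBa-SR+TNFa over AdOVA+TNFa, AdIkBa-SR+TNFa over AdIkBa-SR and TNFa over untreated lie within a record and the other ratios given here do not. The part of these differences in the results was not tested.

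NF-kB is a family of transcription factors that IkBa holds in the cytoplasm. TNFa and many viruses trigger the breakdown of IkBa, which frees NF-kB to switch on genes of inflammation and survival, and a super-repressor is a form of IkBa that resists this breakdown. Dendritic cells that sense a virus mature, and maturing cells are known to trade uptake and growth functions for the display of antigen and the release of cytokines. Some members described here make nucleotides, charge tRNAs, assemble ribosomes, splice RNA or fold proteins, and others have unrelated roles. Whether maturation had a part in their signals was not tested.

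Promoter sequences show one kind of element that members share with many other expressed genes. RefSeq promoter windows (GRCm38.p6, 250 bases before to 50 after a start site) were found for 58 of the 69 genes, in 74 windows. The E-box CACGTG, a palindrome that Myc and its relatives bind, lay in 9 of these windows (12.2%), those of Farsb, Gyg, Iars, Nme1, Padi4, Paics, Pdxk and Selenoh. In Gyg and Padi4 it lay after the start site. It lay in 9.62% of the 9341 windows of all measured genes and in 7.15% of all 32851 windows, so its share in member promoters was close to that of measured genes. The windows of Paics, Nme1, Iars and Farsb are shown because these genes make nucleotides or charge tRNAs, and because Myc is itself a member. They are written 5′ to 3′ on the gene's strand with the E-box in capitals, and in Farsb the NRF1 motif as well.
Paics, chr5:76951052-76951351, plus strand: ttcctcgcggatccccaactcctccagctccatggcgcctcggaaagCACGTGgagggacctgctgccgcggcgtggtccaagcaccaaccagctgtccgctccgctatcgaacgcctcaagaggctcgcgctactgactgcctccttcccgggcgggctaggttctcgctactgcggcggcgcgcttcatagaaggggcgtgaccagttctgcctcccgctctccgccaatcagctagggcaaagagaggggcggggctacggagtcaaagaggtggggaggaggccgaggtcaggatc
Nme1, chr11:93967976-93968275, minus strand, the first of 2 windows: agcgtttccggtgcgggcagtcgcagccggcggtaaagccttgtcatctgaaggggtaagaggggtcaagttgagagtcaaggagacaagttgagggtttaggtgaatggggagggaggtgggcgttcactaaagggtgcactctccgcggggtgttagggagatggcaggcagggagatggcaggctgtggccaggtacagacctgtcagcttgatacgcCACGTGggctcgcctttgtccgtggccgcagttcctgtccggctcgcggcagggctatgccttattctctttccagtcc
Iars, chr13:49681880-49682179, plus strand: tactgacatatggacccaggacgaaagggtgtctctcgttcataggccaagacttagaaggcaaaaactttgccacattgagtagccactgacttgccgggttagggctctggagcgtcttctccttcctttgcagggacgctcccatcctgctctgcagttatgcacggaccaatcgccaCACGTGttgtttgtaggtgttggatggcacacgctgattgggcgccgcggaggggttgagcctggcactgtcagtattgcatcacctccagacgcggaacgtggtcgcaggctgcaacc
Farsb, chr1:78488848-78489147, minus strand: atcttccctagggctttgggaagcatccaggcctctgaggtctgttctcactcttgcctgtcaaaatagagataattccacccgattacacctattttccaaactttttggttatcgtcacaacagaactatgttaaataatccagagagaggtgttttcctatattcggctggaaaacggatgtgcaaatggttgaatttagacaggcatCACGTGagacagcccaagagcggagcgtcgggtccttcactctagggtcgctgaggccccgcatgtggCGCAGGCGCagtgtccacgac

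The E-box lies 203 bases before the start site in Paics, 29 before it in Nme1, 69 before it in Iars and 39 before it in Farsb. Other motifs were searched on both strands in the same windows. The CCAAT box, read as the letters CCAAT, stood in 45.9% of member windows, in 36.5% of those of measured genes and in 37.4% of all. The NRF1 motif GCGCNTGCG stood in 10.8% of member windows, 12.5% of those of measured genes and 6.31% of all. For the ETS motif CCGGAAGT the shares were 9.46% of member windows, 7.61% of those of measured genes and 3.89% of all. For the kappaB motif the shares were 5.41% of member windows, 10.5% of those of measured genes and 8.46% of all, with matches in windows of Aimp1, Iars, Mthfd1 and Rbbp7. The interferon element GAAANNGAA stood in 10.8% of member windows, 6.96% of those of measured genes and 8.56% of all. The YY1 motif AAGATGGCG (2.7% of member windows, 2.79% of those of measured genes), the CRE TGACGTCA (1.35% of member windows, 2.73% of those of measured genes) and TATAAA (10.8% of member windows, 8.17% of those of measured genes) were also counted. Member windows had a median GC content of 59.5% and a median of 20.5 CpG sites, against 60.33% and 20 in the windows of measured genes and 52.67% and 7 in all windows. These matches are letters in a window and say nothing of what binds there.

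On the arrays with TNFa, the median member was at 0.359 times its level without virus on the AdOVA array (log2 -1.48), and members ranged up to 0.499 times, with the lowest, Hsd17b10, at most 0.200 times. Without TNFa the median was 0.382 times (log2 -1.39), and members ranged up to 0.498 times, with the lowest, Trem2, at most 0.115 times. With AdIkBa-SR the median member stood 2.44-fold above AdOVA in cells with TNFa (log2 1.29) and 2.49-fold above it in cells without TNFa (log2 1.32), and the highest were 7.73-fold (Fabp5) and at least 8.43-fold (Trem2) above. Over all 13623 measured probe sets, those with 1 symbol and above 53.5 on at least 2 arrays, the medians of these 4 log2 ratios were 0.07, 0.01, -0.12 and -0.03. The pattern was uncommon on the array: 187 measured probe sets (1.37%) were at most 0.5 times with AdOVA in both pairs, and 108 of them (0.793% of those measured) met the whole rule before symbols were left out. Thus 57.8% of the lowered probe sets were called restored. The arrays with TNFa alone would give 360 probe sets (2.64%) and the arrays without TNFa alone 469 (3.44%), and the 108 are 30% of the 360 and 23% of the 469. These 2 sets of 3 arrays share no array. The opposite course, at least 2-fold higher with AdOVA and at least 1.7-fold lower with AdIkBa-SR in both pairs, was seen for 184 measured probe sets.

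**Figure D1:**
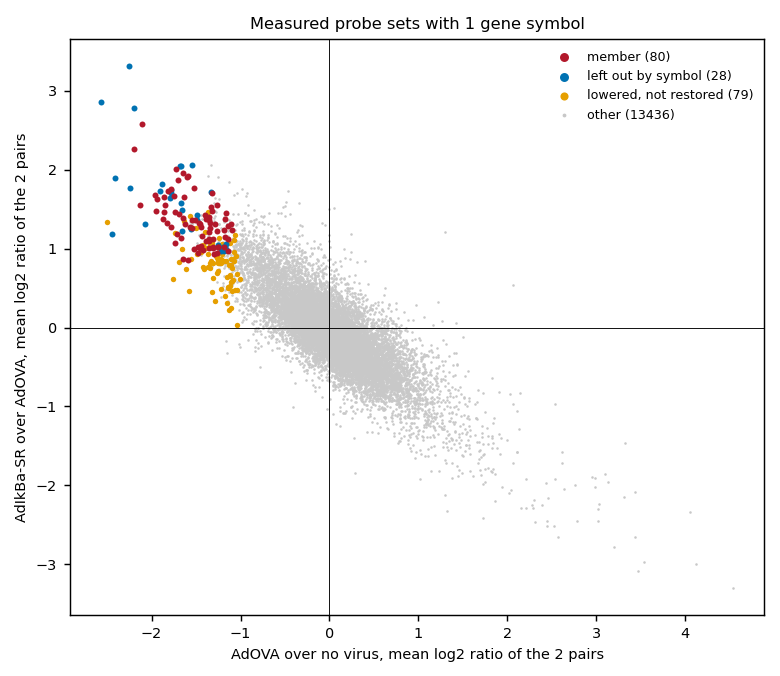
Each point is 1 of 13623 measured probe sets. The x axis gives the mean log2 ratio of AdOVA over no virus of the pairs with and without TNFa and the y axis the mean log2 ratio of AdIkBa-SR over AdOVA. Both axes contain the AdOVA signals, which tilts the cloud downwards to the right. The 80 members (red) lie at the upper left, with the 28 left out by symbol (blue), and the 79 lowered but not restored (orange) lie below them.

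By the rule, members had to lie above 53.5 on the arrays without virus and on those with AdIkBa-SR. Their levels there were thus partly fixed by the choice and are no check on it. The untreated signals of members ranged from 110 to 9171 with a median of 325.7, against a median of 151.2 for all measured probe sets. All 6 signals were above 53.5 for 54 members. Another 19 were under it on 1 AdOVA array and 7 on both, and none was under it on any other array, so folds against those AdOVA signals are lower bounds and are written with "at least". The 69 genes are described below by role, with groups drawn up by hand after the members were known.

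**Figure D2:**
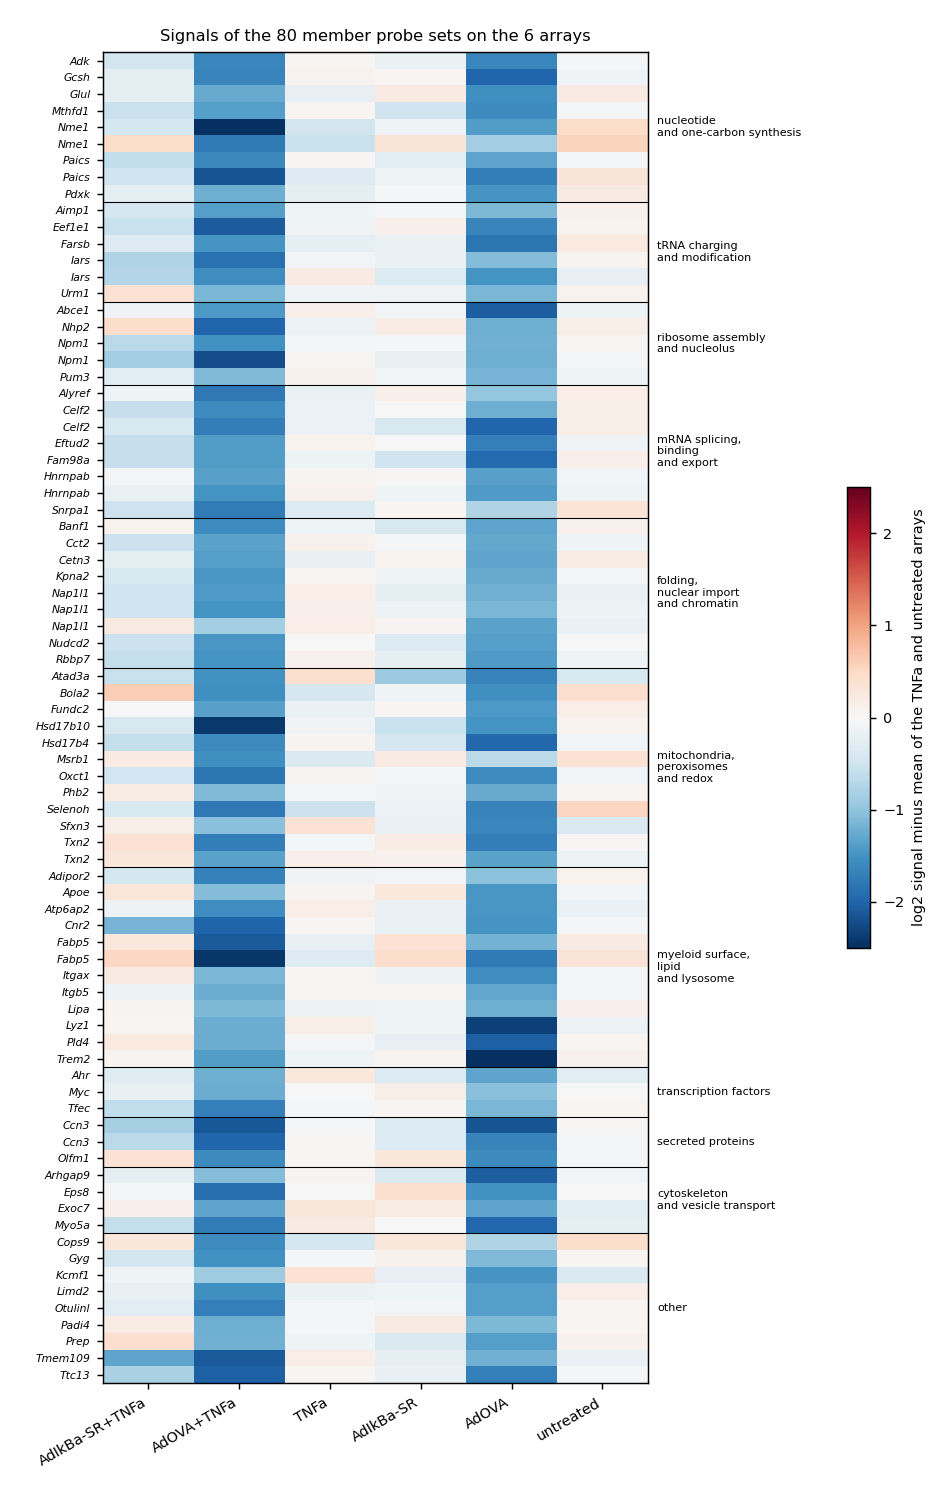
Rows are the 80 member probe sets, grouped by role, and columns the 6 arrays. Colour gives the log2 signal minus the mean of the TNFa and untreated arrays, with signals under 53.5 set to 53.5. The AdOVA+TNFa and AdOVA columns are blue throughout, and the AdIkBa-SR columns are closer in colour to the TNFa and untreated columns, with exceptions such as Tmem109 and Cnr2 in cells given TNFa.

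Genes of nucleotide and one-carbon metabolism, grouped with Glul and Pdxk, supplied 9 probe sets of 7 genes, and Nme1 was the lowest of them with AdOVA+TNFa. Nme1 is a nucleoside diphosphate kinase, which keeps the pools of nucleoside triphosphates in balance. Its probe set 1424110_a_at read 225 with AdIkBa-SR+TNFa, 10.2 with AdOVA+TNFa and 223 with TNFa alone, and 282 with AdIkBa-SR, 115 with AdOVA and 417 untreated. The signal was at least 4.18-fold lower with AdOVA+TNFa than with TNFa alone and 3.62-fold lower with AdOVA than untreated. The second Nme1 probe set, 1435277_x_at, read 253 (AdIkBa-SR), 38.9 (AdOVA) and 124 (no virus) with TNFa, and 227 (AdIkBa-SR), 101 (AdOVA) and 269.9 (no virus) without TNFa. Here the AdIkBa-SR+TNFa signal was 2.04 times the TNFa signal, one of the highest such ratios among members. Paics carries out consecutive steps of purine synthesis. Its probe set 1436298_x_at read 168 with AdIkBa-SR+TNFa, 34.6 with AdOVA+TNFa and 189.8 with TNFa alone, and 222 with AdIkBa-SR, 72.3 with AdOVA and 299 untreated, and 1423564_a_at read 298 (AdIkBa-SR), 149.9 (AdOVA) and 462 (no virus) with TNFa, and 373 (AdIkBa-SR), 183 (AdOVA) and 449 (no virus) without TNFa. The first was 4.13-fold lower with AdOVA than untreated and the second 2.46-fold, and in both the AdIkBa-SR signals stayed under those without virus.

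Gcsh, the carrier protein of the glycine cleavage system that feeds one-carbon units in mitochondria, read 362 with AdIkBa-SR+TNFa, 135 with AdOVA+TNFa and 454 with TNFa alone, and 443 with AdIkBa-SR, 108 with AdOVA and 399 untreated. AdOVA signals were 3.36-fold lower with TNFa and 3.69-fold lower without it, and AdIkBa-SR was 2.68-fold and 4.10-fold above AdOVA in the same pairs. Mthfd1, the cytosolic enzyme that interconverts folate-bound one-carbon units, read 109 (AdIkBa-SR), 62.3 (AdOVA) and 166 (no virus) with TNFa, and 113 (AdIkBa-SR), 12.4 (AdOVA) and 156 (no virus) without TNFa. Its AdOVA signal without TNFa was among the dimmest of the members. Adk, adenosine kinase, which returns adenosine to the nucleotide pool, read 121 with AdIkBa-SR+TNFa, 17.1 with AdOVA+TNFa and 171 with TNFa alone, and 146 with AdIkBa-SR, 38.3 with AdOVA and 159.7 untreated, with both AdOVA arrays under 53.5. Glul, glutamine synthetase, and Pdxk, which makes the active form of vitamin B6, completed the group. Glul was 2.08-fold lower with AdOVA+TNFa and 3.31-fold lower with AdOVA, and Pdxk 2.01-fold and 3.24-fold.

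Among the genes for tRNA charging and modification, Farsb and Iars encode synthetases, for phenylalanine (its beta subunit) and for isoleucine. Farsb read 151 with AdIkBa-SR+TNFa, 68.4 with AdOVA+TNFa and 158 with TNFa alone, and 167 with AdIkBa-SR, 38.7 with AdOVA and 225 untreated, which is at least 4.21-fold lower with AdOVA than untreated. Iars was read by 1452154_at, at 176 (AdIkBa-SR), 100.0 (AdOVA) and 335 (no virus) with TNFa, and 232 (AdIkBa-SR), 103 (AdOVA) and 255 (no virus) without TNFa, and by 1426705_s_at, at 146 (AdIkBa-SR), 67.2 (AdOVA) and 233 (no virus) with TNFa, and 219 (AdIkBa-SR), 115 (AdOVA) and 259 (no virus) without TNFa. Both Iars probe sets gave AdIkBa-SR+TNFa signals under TNFa alone, at 0.525 and 0.628 times, but AdIkBa-SR signals at 0.910 and 0.846 times the untreated level. Aimp1 and Eef1e1 are scaffold proteins of the multi-synthetase complex that holds several such enzymes, and both were members. Eef1e1 was at least 3.95-fold lower with AdOVA+TNFa and 3.36-fold lower with AdOVA, and Aimp1 2.42-fold and 2.34-fold. Urm1, a ubiquitin-like protein that delivers sulphur to tRNA, read 154 with AdIkBa-SR+TNFa, 43.4 with AdOVA+TNFa and 111 with TNFa alone, and 111 with AdIkBa-SR, 45.5 with AdOVA and 126 untreated, and both AdOVA signals were under 53.5.

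The nucleolus and ribosome assembly contributed Npm1, Nhp2, Abce1 and Pum3. Npm1, nucleophosmin, is an abundant nucleolar chaperone of ribosome assembly. Its probe set 1415839_a_at read 737 with AdIkBa-SR+TNFa, 412 with AdOVA+TNFa and 1151 with TNFa alone, and 1145 with AdIkBa-SR, 506 with AdOVA and 1189 untreated, and 1432416_a_at read 529.9 (AdIkBa-SR), 209 (AdOVA) and 1002 (no virus) with TNFa, and 851 (AdIkBa-SR), 418 (AdOVA) and 946 (no virus) without TNFa. The second was 4.80-fold lower with AdOVA+TNFa than with TNFa, and the AdIkBa-SR+TNFa signal regained 0.529 times the TNFa level. Without TNFa the AdIkBa-SR signals of both Npm1 probe sets were at 0.963 and 0.900 times untreated. Nhp2, a core protein of the H/ACA particles that guide pseudouridine formation in ribosomal RNA, read 402 with AdIkBa-SR+TNFa, 74.98 with AdOVA+TNFa and 270.2 with TNFa alone, and 336 with AdIkBa-SR, 129 with AdOVA and 328 untreated. With TNFa its AdIkBa-SR signal was 5.36-fold above AdOVA, among the largest such ratios of the members. Abce1, an ATPase that splits ribosomes for reuse, read 231 (AdIkBa-SR), 90.5 (AdOVA) and 266 (no virus) with TNFa, and 232 (AdIkBa-SR), 58.8 (AdOVA) and 224 (no virus) without TNFa. It was 3.82-fold lower with AdOVA than untreated. Pum3, a nucleolar protein, was 2.32-fold lower with AdOVA+TNFa and 2.09-fold lower with AdOVA.

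Of the genes that splice, bind or export mRNA, Hnrnpab, an RNA-binding protein of nuclear transcripts, was the brightest. It read 1896 with AdIkBa-SR+TNFa, 756 with AdOVA+TNFa and 2296 with TNFa alone, and 1953 with AdIkBa-SR, 792 with AdOVA and 1952 untreated by 1455855_x_at, and 1157 (AdIkBa-SR), 457 (AdOVA) and 1233 (no virus) with TNFa, and 1203 (AdIkBa-SR), 459.6 (AdOVA) and 1118 (no virus) without TNFa by 1415914_at. With AdIkBa-SR these 2 probe sets came to 1 and 1.08 times untreated, and with AdIkBa-SR+TNFa to 0.826 and 0.939 times TNFa alone. Celf2, a regulator of alternative splicing, read 205 with AdIkBa-SR+TNFa, 80.8 with AdOVA+TNFa and 242 with TNFa alone, and 204 with AdIkBa-SR, 67.4 with AdOVA and 296 untreated by 1451154_a_at, and 183 (AdIkBa-SR), 92.3 (AdOVA) and 246 (no virus) with TNFa, and 272 (AdIkBa-SR), 118 (AdOVA) and 304 (no virus) without TNFa by 1450069_a_at. The first was 4.39-fold lower with AdOVA than untreated. Eftud2, a GTPase of the U5 particle of the spliceosome, read 362 with AdIkBa-SR+TNFa, 205 with AdOVA+TNFa and 571 with TNFa alone, and 543 with AdIkBa-SR, 165 with AdOVA and 508 untreated. Snrpa1, a protein of the U2 particle, read 174 (AdIkBa-SR), 74.2 (AdOVA) and 195 (no virus) with TNFa, and 258 (AdIkBa-SR), 146 (AdOVA) and 317 (no virus) without TNFa. Alyref, an adaptor for mRNA export, and Fam98a completed the group. Alyref was 3.08-fold lower with AdOVA+TNFa and 2.19-fold lower with AdOVA, and Fam98a 2.44-fold and at least 4.15-fold.

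Chaperones, nuclear import and chromatin were represented by 9 probe sets of 7 genes. Nap1l1, a histone chaperone that helps assemble nucleosomes, had 3 member probe sets, more than any other gene. They read 456 with AdIkBa-SR+TNFa, 242 with AdOVA+TNFa and 719 with TNFa alone, and 540.4 with AdIkBa-SR, 281 with AdOVA and 575 untreated (1420476_a_at), 409 (AdIkBa-SR), 194 (AdOVA) and 391 (no virus) with TNFa, and 365 (AdIkBa-SR), 139 (AdOVA) and 312 (no virus) without TNFa (1420479_a_at) and 730.4 (AdIkBa-SR), 367 (AdOVA) and 1131 (no virus) with TNFa, and 948 (AdIkBa-SR), 469.7 (AdOVA) and 943 (no virus) without TNFa (1420478_at). All 3 stood at about the untreated level with AdIkBa-SR, at 0.940, 1.17 and 1.01 times. With AdIkBa-SR+TNFa they did not line up, at 0.634, 1.05 and 0.646 times TNFa alone. Rbbp7, a histone-binding protein shared by several chromatin complexes, read 456 with AdIkBa-SR+TNFa, 246 with AdOVA+TNFa and 744 with TNFa alone, and 587 with AdIkBa-SR, 258 with AdOVA and 636 untreated. Cct2, a subunit of the chaperonin that folds actin and tubulin, read 889.7 (AdIkBa-SR), 506 (AdOVA) and 1379 (no virus) with TNFa, and 1246 (AdIkBa-SR), 532 (AdOVA) and 1197 (no virus) without TNFa. Banf1, a small DNA-binding protein that links chromatin to the nuclear envelope, read 319 with AdIkBa-SR+TNFa, 101 with AdOVA+TNFa and 278 with TNFa alone, and 226 with AdIkBa-SR, 121 with AdOVA and 324 untreated. Kpna2, an importin alpha that carries cargo into the nucleus, was 2.81-fold lower with AdOVA+TNFa and 2.34-fold lower with AdOVA. For Cetn3, a centrin of the centrosome, these values were 2.27-fold and 2.83-fold, and for Nudcd2, a co-chaperone, at least 2.74-fold and 2.61-fold. A brighter Nudcd2 probe set, 1418566_s_at, was at log2 -0.20 for AdOVA+TNFa over TNFa and -0.30 for AdOVA over untreated. Without TNFa it read 188.2 with AdIkBa-SR and 286.6 with AdOVA.

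Mitochondrial, peroxisomal and redox genes made up 12 probe sets of 11 genes. Txn2, the thioredoxin of mitochondria, was under 53.5 on both AdOVA arrays in both of its member probe sets. It read 227 with AdIkBa-SR+TNFa, 26.2 with AdOVA+TNFa and 175 with TNFa alone, and 203 with AdIkBa-SR, 28.3 with AdOVA and 180 untreated by 1421557_x_at, and 163 (AdIkBa-SR), 19.6 (AdOVA) and 147 (no virus) with TNFa, and 145 (AdIkBa-SR), 20.2 (AdOVA) and 123 (no virus) without TNFa by 1452782_a_at. All 4 AdIkBa-SR signals were above those without virus, at 1.30 and 1.11 times with TNFa and 1.13 and 1.18 times without it. A brighter Txn2 probe set, 1455640_a_at, is no member. With TNFa it read 234.5 (AdIkBa-SR), 193.5 (AdOVA) and 193.8 (no virus). Without TNFa it read 403, 212.4 and 327.1 in the same order, so its AdOVA signals stayed well above 53.5. Oxct1, which lets mitochondria burn ketone bodies, read 314 with AdIkBa-SR+TNFa, 125 with AdOVA+TNFa and 459 with TNFa alone, and 428 with AdIkBa-SR, 147 with AdOVA and 418 untreated. Atad3a, an ATPase of the mitochondrial inner membrane, read 116 (AdIkBa-SR), 60.1 (AdOVA) and 227 (no virus) with TNFa, and 91.1 (AdIkBa-SR), 8.80 (AdOVA) and 129.5 (no virus) without TNFa, and its AdIkBa-SR signals stayed at 0.511 and 0.703 times those without virus. Sfxn3, a carrier of the sideroflexin family, read 264 with AdIkBa-SR+TNFa, 116 with AdOVA+TNFa and 307 with TNFa alone, and 214 with AdIkBa-SR, 77.2 with AdOVA and 188 untreated. Phb2, prohibitin 2, a scaffold of the inner membrane, read 397 (AdIkBa-SR), 163 (AdOVA) and 336 (no virus) with TNFa, and 329.5 (AdIkBa-SR), 145 (AdOVA) and 361 (no virus) without TNFa.

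Selenoh, a selenoprotein with a redox fold, read 142 with AdIkBa-SR+TNFa, 10.3 with AdOVA+TNFa and 128 with TNFa alone, and 166 with AdIkBa-SR, 57.9 with AdOVA and 269 untreated. Bola2, which takes part in handing on iron-sulphur clusters, read 235 (AdIkBa-SR), 11.2 (AdOVA) and 115 (no virus) with TNFa, and 142 (AdIkBa-SR), 31.8 (AdOVA) and 205 (no virus) without TNFa. In both genes TNFa alone was low against untreated, at 0.475 and 0.563 times. Hsd17b10, a mitochondrial dehydrogenase that is also part of mitochondrial RNase P, read 217 with AdIkBa-SR+TNFa, 16.2 with AdOVA+TNFa and 268 with TNFa alone, and 195 with AdIkBa-SR, 102 with AdOVA and 303 untreated. It had an AdOVA+TNFa signal at least 5.01-fold lower than TNFa and an AdOVA signal 2.98-fold lower than untreated. Hsd17b4, an enzyme of fatty-acid oxidation in peroxisomes, was 3.17-fold lower with AdOVA+TNFa and at least 3.71-fold lower with AdOVA. Msrb1, which repairs oxidised methionine, was 2.25-fold and 2.07-fold lower in the same order, and Fundc2, a protein of the mitochondrial outer membrane, 2.31-fold and 3.02-fold.

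The genes of the myeloid surface, of lipids and of the lysosome held the highest signal of any member and the largest ratios of AdIkBa-SR over AdOVA. Fabp5, a carrier of fatty acids in the cytoplasm, read 4241 with AdIkBa-SR+TNFa, 549 with AdOVA+TNFa and 2373 with TNFa alone, and 4021 with AdIkBa-SR, 868 with AdOVA and 3731 untreated by 1416022_at. That was 4.33-fold lower with AdOVA+TNFa than with TNFa and 4.30-fold lower with AdOVA than untreated. Its AdIkBa-SR+TNFa signal was 7.73-fold above AdOVA+TNFa and 1.79 times TNFa alone. The second Fabp5 probe set, 1416021_a_at, read 6838 (AdIkBa-SR), 1329 (AdOVA) and 4958 (no virus) with TNFa, and 7350 (AdIkBa-SR), 2523 (AdOVA) and 6610 (no virus) without TNFa. Lyz1, a lysozyme, read 10477 with AdIkBa-SR+TNFa, 4296 with AdOVA+TNFa and 11255 with TNFa alone, and 9482 with AdIkBa-SR, 2019 with AdOVA and 9171 untreated, the brightest member. Lyz1 has a near-identical neighbour, Lyz2, and Fabp5 is known to have processed copies, so how far these probes read only the named gene is uncertain.

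Itgax, which encodes CD11c, the surface integrin by which dendritic cells are often recognised, read 847 with AdIkBa-SR+TNFa, 329 with AdOVA+TNFa and 755 with TNFa alone, and 664 with AdIkBa-SR, 247 with AdOVA and 699.5 untreated. It was 2.30-fold lower with AdOVA+TNFa and 2.83-fold lower with AdOVA, and with AdIkBa-SR+TNFa and AdIkBa-SR it stood at 1.12 and 0.949 times the levels without virus. Lipa, the acid lipase of the lysosome, read 1721 (AdIkBa-SR), 753 (AdOVA) and 1512 (no virus) with TNFa, and 1528 (AdIkBa-SR), 709 (AdOVA) and 1792 (no virus) without TNFa. Cnr2, the cannabinoid receptor of immune cells, read 95.6 with AdIkBa-SR+TNFa, 22.2 with AdOVA+TNFa and 219 with TNFa alone, and 191 with AdIkBa-SR, 77.2 with AdOVA and 208 untreated. Cnr2 was back at 0.920 times untreated with AdIkBa-SR, but only at 0.437 times TNFa with AdIkBa-SR+TNFa. Atp6ap2, an accessory protein of the proton pump that acidifies vesicles, read 4143 (AdIkBa-SR), 1532 (AdOVA) and 5052 (no virus) with TNFa, and 4031 (AdIkBa-SR), 1633 (AdOVA) and 4016 (no virus) without TNFa. Its other probe sets, 1437688_x_at and 1423662_at, were also bright but fell less with AdOVA. In cells given TNFa, 1437688_x_at had signals of 3433 (AdIkBa-SR), 2722 (AdOVA) and 4972 (no virus), and 1423662_at of 2387, 2377 and 3379. Without TNFa the signals were 4417, 3846 and 4330 for 1437688_x_at and 3166, 2561 and 2989 for 1423662_at.

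Trem2, a lipid-sensing receptor of myeloid cells, read 456 with AdIkBa-SR+TNFa, 165 with AdOVA+TNFa and 401 with TNFa alone, and 451 with AdIkBa-SR, 46.0 with AdOVA and 466 untreated, and was picked for the text after its values were seen. The AdOVA signal without TNFa was at least 8.71-fold lower than untreated and the AdOVA+TNFa signal 2.43-fold lower than TNFa. The other Trem2 probe set, 1421226_at, was dim and read 78.5 (AdIkBa-SR), 61.7 (AdOVA) and 28.8 (no virus) with TNFa, and 53.1 (AdIkBa-SR), 118 (AdOVA) and 72.9 (no virus) without TNFa, with AdOVA signals above those without virus in both pairs. Apoe, a lipid carrier, was 2.22-fold lower with AdOVA+TNFa and at least 2.61-fold lower with AdOVA. The same values were 2.28-fold and 4.22-fold for Pld4, an exonuclease of endosomes that degrades nucleic acids, and 3.04-fold and 2.15-fold for Adipor2, an adiponectin receptor. For Itgb5, an integrin chain, they were 2.44-fold and at least 2.38-fold. Brighter Itgb5 probe sets fell less with AdOVA+TNFa, at log2 -0.50 (1417533_a_at), -0.19 (1417534_at) and -0.19 (1456133_x_at). For AdOVA over untreated they were at -1.10, -1.37 and -0.71 in the same order.

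Myc, Tfec and Ahr are the transcription factors among the members. Myc drives genes of growth, Tfec is a myeloid relative of the lysosomal regulator Tfeb, and Ahr is a receptor for aromatic ligands. Myc was dim and read 112 with AdIkBa-SR+TNFa, 42.4 with AdOVA+TNFa and 128 with TNFa alone, and 141 with AdIkBa-SR, 61.8 with AdOVA and 126 untreated, which puts it at least 2.38-fold lower with AdOVA+TNFa and 2.05-fold lower with AdOVA. Tfec was 3.19-fold and 2.28-fold lower and Ahr 2.79-fold and 2.07-fold lower in the same pairs. A dimmer Ahr probe set, 1450695_at, did not follow the pattern. With TNFa it read 97.1 (AdIkBa-SR), 94.7 (AdOVA) and 144.5 (no virus). Without TNFa it read 139.3, 151.1 and 132.4 in the same order. The values of these 3 genes were picked for the text after they were seen.

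Ccn3 and Olfm1 are secreted. Ccn3, a matrix-associated signalling protein, was low in both of its probe sets. It read 283 with AdIkBa-SR+TNFa, 116 with AdOVA+TNFa and 490.3 with TNFa alone, and 398 with AdIkBa-SR, 113 with AdOVA and 513 untreated by 1426851_a_at, 4.23-fold and 4.54-fold lower with AdOVA, and 471 (AdIkBa-SR), 189.6 (AdOVA) and 771 (no virus) with TNFa, and 594 (AdIkBa-SR), 236 (AdOVA) and 736 (no virus) without TNFa by 1426852_x_at. Both probe sets came back only in part with AdIkBa-SR+TNFa, to 0.578 and 0.611 times TNFa alone. Olfm1, an olfactomedin, read 207 with AdIkBa-SR+TNFa, 14.8 with AdOVA+TNFa and 166 with TNFa alone, and 197 with AdIkBa-SR, 8.12 with AdOVA and 157 untreated. Its AdIkBa-SR signals were 1.25 and 1.25 times those without virus.

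Of the genes for the cytoskeleton and vesicle transport, Myo5a, an actin motor that carries vesicles, read 373 with AdIkBa-SR+TNFa, 169 with AdOVA+TNFa and 664 with TNFa alone, and 573 with AdIkBa-SR, 146 with AdOVA and 482 untreated. Eps8, which caps and bundles actin, read 393 (AdIkBa-SR), 111 (AdOVA) and 408 (no virus) with TNFa, and 535 (AdIkBa-SR), 143 (AdOVA) and 407 (no virus) without TNFa. Both were low on both AdOVA arrays, and Eps8 without TNFa stood at 1.31 times untreated with AdIkBa-SR. Arhgap9 was 2.21-fold lower with AdOVA+TNFa and at least 3.98-fold lower with AdOVA, and Exoc7, a subunit of the exocyst that docks vesicles, at least 3.04-fold and at least 2.06-fold. Other Arhgap9 probe sets did not fall as far. For AdOVA+TNFa over TNFa the brighter 1424249_a_at and 1436097_x_at were at log2 -0.56 and 0.19, and 1419810_x_at at 0.60. For AdOVA over untreated they were at -0.83, -0.47 and -0.94 in the same order.

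The remaining members had various or little-known roles. Tmem109, a membrane protein, read 262 with AdIkBa-SR+TNFa, 153 with AdOVA+TNFa and 732 with TNFa alone, and 559 with AdIkBa-SR, 285 with AdOVA and 584 untreated by its member probe set 1437008_x_at. Ttc13, a protein with tetratricopeptide repeats, read 190 (AdIkBa-SR), 81.2 (AdOVA) and 339 (no virus) with TNFa, and 294 (AdIkBa-SR), 102 (AdOVA) and 329 (no virus) without TNFa. In both the AdIkBa-SR+TNFa signal stayed well under TNFa alone, at 0.358 and 0.561 times, while AdIkBa-SR without TNFa was at 0.956 and 0.894 times untreated. Otulinl, a relative of the deubiquitinase Otulin, read 213 with AdIkBa-SR+TNFa, 79.3 with AdOVA+TNFa and 253 with TNFa alone, and 248 with AdIkBa-SR, 99.8 with AdOVA and 268 untreated. Limd2, a small LIM-domain protein, read 659 (AdIkBa-SR), 256 (AdOVA) and 668 (no virus) with TNFa, and 695 (AdIkBa-SR), 285 (AdOVA) and 830.1 (no virus) without TNFa. Kcmf1, a ubiquitin ligase, read 137 with AdIkBa-SR+TNFa, 79.3 with AdOVA+TNFa and 189 with TNFa alone, and 128 with AdIkBa-SR, 17.9 with AdOVA and 115 untreated. AdOVA+TNFa and AdOVA folds were 2.19-fold and 2.31-fold lower for Cops9, a small subunit of the COP9 signalosome, and 2.76-fold and 2.21-fold lower for Gyg, the protein that primes glycogen. They were 2.25-fold and 2.26-fold lower for Padi4, which converts arginine to citrulline, and 2.13-fold and 2.79-fold lower for Prep, a prolyl peptidase.

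**Figure D3:**
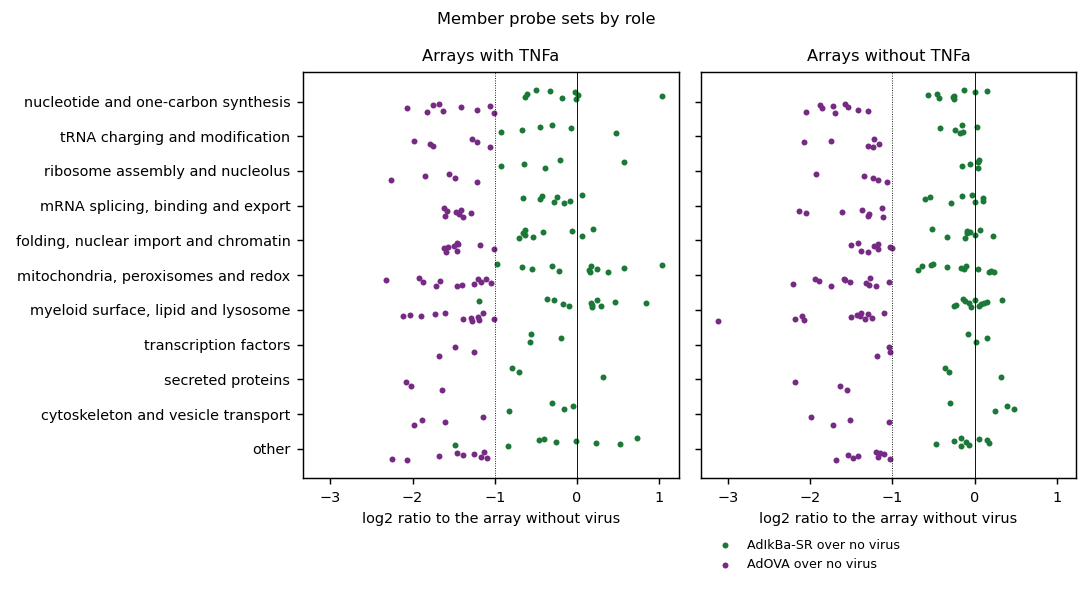
Each point is a member probe set, placed by role. Purple points give the log2 ratio of AdOVA over no virus and green points that of AdIkBa-SR over no virus, with TNFa on the left and without on the right. The dotted line marks the limit of the rule, a ratio of 0.5. Green points without TNFa lie closer to 0 than those with TNFa in most groups.

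The rule sets no upper limit on AdIkBa-SR against no virus, although the same arrays entered it. Without TNFa, 77 of the 80 members (96.2%) were within 1.5-fold of untreated with AdIkBa-SR, and over all measured probe sets the share was 91.5%. With TNFa, 57 members (71.2%) were within 1.5-fold of TNFa alone with AdIkBa-SR+TNFa, against 75.2% of all measured. The members' medians were -0.23 (log2) for AdIkBa-SR+TNFa over TNFa and -0.10 for AdIkBa-SR over untreated. Their interquartile ranges ran from -0.57 to 0.15 and from -0.26 to 0.05. At 2-fold or more, 2 members were higher and 2 lower with AdIkBa-SR+TNFa than with TNFa, where 3.11% and 2.72% of all measured probe sets were. None was 2-fold higher or lower with AdIkBa-SR than untreated, where 0.573% and 0.521% of all were. The members past 2-fold were Bola2 and Nme1 (1435277_x_at), higher at 2.04 and 2.04 times TNFa, and Cnr2 and Tmem109 (1437008_x_at), lower at 0.437 and 0.358 times. Other Tmem109 probe sets disagreed on this ratio. It was at log2 -1.12 for 1456057_x_at, but at 0.83 for 1416032_at and 0.18 for 1416033_at.

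AdIkBa-SR signals were under those without virus in both pairs for 33 members and above them in both for 9, and 54 members were within 1.5-fold in both. The highest mean log2 ratios of AdIkBa-SR over no virus were those of Fabp5 (1416022_at, 0.47), Nme1 (1435277_x_at, 0.39) and Olfm1 (0.32). The lowest were those of Tmem109 (1437008_x_at, -0.77), Atad3a (-0.74) and Cnr2 (-0.66). The 79 probe sets that were lowered but not restored in both pairs differ from members by the rule itself. In them the median of AdIkBa-SR+TNFa over TNFa was -0.81 and that of AdIkBa-SR over untreated -0.19, so the pairs with TNFa held most of the gap.

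The TNFa ratios were not part of the rule, although all the signals in them entered it, so they are a description only. In cells with AdIkBa-SR the members' median log2 ratio of AdIkBa-SR+TNFa over AdIkBa-SR was -0.17. It was -0.07 for AdOVA+TNFa over AdOVA and -0.02 for TNFa over untreated. Over all measured probe sets these medians were 0, 0.05 and 0. None of the members was 2-fold higher in AdIkBa-SR cells (2.04% of all measured were), and 2 were 2-fold lower (0.852% of all), Cnr2 at 0.500 and Tmem109 (1437008_x_at) at 0.469 times. Other Tmem109 probe sets were at log2 -1.05 (1456057_x_at), 0.73 (1416032_at) and 0.33 (1416033_at) for the same ratio. In AdOVA cells 2 were 2-fold higher (4.79% of all), Trem2 at least 3.09 times and Lyz1 at 2.13 times, and 2 were 2-fold lower (2.93% of all), Nme1 (1424110_a_at) at most 0.464 times and Npm1 (1432416_a_at) at 0.499 times. Without virus none was 2-fold higher (0.734% of all) and 2 were 2-fold lower (1.02% of all), Nme1 (1435277_x_at) at 0.460 and Selenoh at 0.475 times. No member reached 2-fold in one direction in all 3 virus states. The largest ratios of TNFa over untreated were those of Atad3a (1.75), Kcmf1 (1.64) and Sfxn3 (1.64). Other measured probe sets of Atad3a and Kcmf1 did not rise as far. For Atad3a they were at log2 0.295 (1438178_x_at) and -0.20 (1422461_at), and for Kcmf1 at -0.15 (1418694_at) and -0.16 (1418695_a_at).

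**Figure D4:**
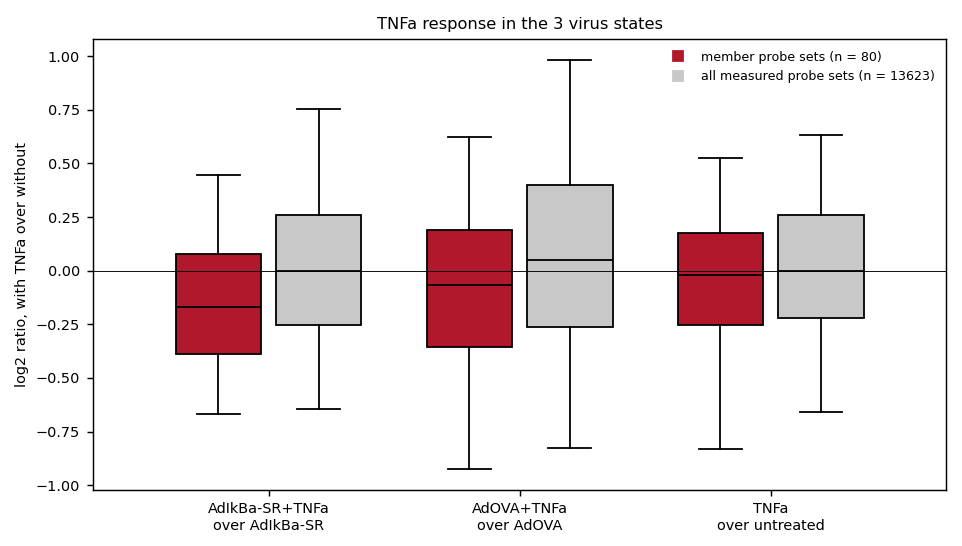
Boxes give the interquartile range of the log2 ratios with TNFa over without TNFa, the line in each box is the median, and whiskers run from the 5th to the 95th percentile. The 80 member probe sets (red) are set against all 13623 measured probe sets (grey) in the 3 virus states. The member medians, -0.17, -0.07 and -0.02, lie slightly under those of all measured probe sets.

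Other probe sets of the same genes, which the rule did not pick, give another reading from the same arrays. Of the 69 genes, 42 had 87 other probe sets, and 72 of these were measured. Of the 72, 56 (77.8%) were lower with AdOVA in both pairs, against 27.8% of all measured probe sets, and 8 (11.1%) were at most 0.5 times in both, against 1.37%. In 47 the signal was lower with AdOVA and higher with AdIkBa-SR than with AdOVA in both pairs, and in 5 it was higher with AdOVA in both. The shares of all measured probe sets with these courses were not counted. Since AdOVA enters both ratios of the first course, the 47 are a description only. The median log2 ratios of the 72 were -0.53 for AdOVA+TNFa over TNFa, -0.82 for AdOVA over untreated, 0.55 for AdIkBa-SR+TNFa over AdOVA+TNFa and 0.82 for AdIkBa-SR over AdOVA. The low of the members was therefore shared by most other probe sets of their genes, at a smaller size. No other reading exists for the 27 genes whose only probe sets are members.

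**Figure D5:**
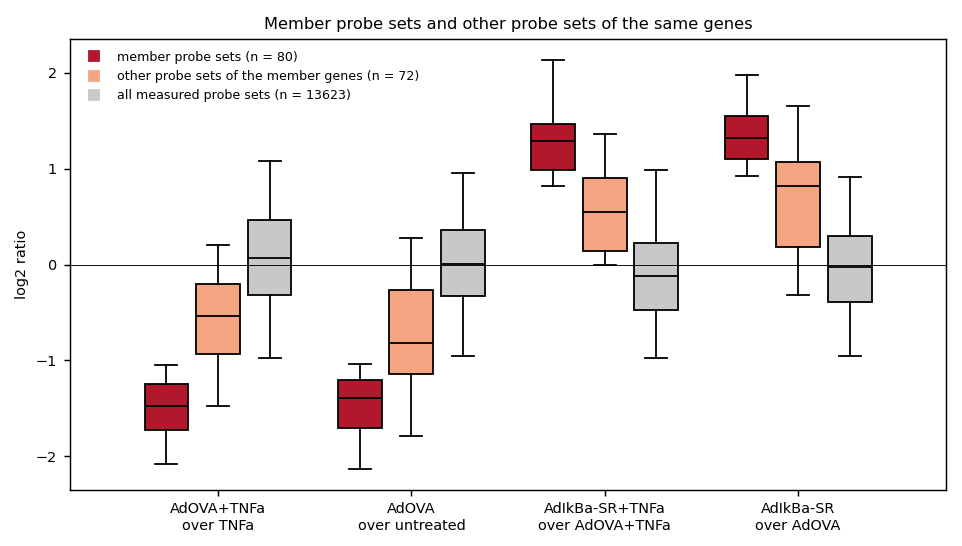
Boxes give the interquartile range of the log2 ratios, the line in each box is the median, and whiskers run from the 5th to the 95th percentile. Members (red) are there by choice. The 72 other measured probe sets of their genes (orange) have medians of -0.53, -0.82, 0.55 and 0.82, between the members and all measured probe sets (grey).

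For some genes the probe sets disagreed. The 5 that were higher with AdOVA in both pairs read Bola2, Glul, Hnrnpab, Lyz1 and Trem2, and the genes named here were chosen after their values were seen. Lyz1 was also read by the brighter 1436996_x_at, at 14304 with AdIkBa-SR+TNFa, 12142 with AdOVA+TNFa and 14906 with TNFa alone, and 14709 with AdIkBa-SR, 14438 with AdOVA and 14356 untreated, and there the AdOVA signals were close to those without virus. Hnrnpab was also read by 1426114_at, at 1798 (AdIkBa-SR), 3380 (AdOVA) and 2380 (no virus) with TNFa, and 2765 (AdIkBa-SR), 2852 (AdOVA) and 1864 (no virus) without TNFa, which was higher with AdOVA in both pairs. Kcmf1 by 1418695_a_at read 978 with AdIkBa-SR+TNFa, 958 with AdOVA+TNFa and 900.1 with TNFa alone, and 899 with AdIkBa-SR, 837 with AdOVA and 1004 untreated, with AdOVA signals within 1.5-fold of those without virus. In 21 of the 72 the untreated signal was brighter than in every member probe set of the gene. Read from the brightest probe set of each of 8933 genes, 112 genes (1.25%) were at most 0.5 times in both pairs and 67 (0.75%) met the whole pattern. The names of member probe sets also differ from the rest of the array. Names ending in _x_at, given to probe sets whose probes can also match other transcripts, made up 18 of 80 members (22.5%), against 12.7% of the 79 lowered but not restored and 6.78% of all measured. Names ending in _a_at, for probes that match several transcripts of one gene, made up 31.2% of members and 19.5% of all measured. The part of such cross-matching in the pattern was not tested.

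Lists of genes for each process were read with the members of the rule left in. The lists were written with earlier results on these arrays known, and each gene is read from its brightest probe set. Read in that way, 26.8% of all 8933 genes were lower with AdOVA in both pairs and 1.25% at most 0.5 times, and the counts of each list stand beside those shares. The rule chose members for low AdOVA signals, so in lists that hold members the counts and medians are partly fixed by that choice. Of 26 measured genes of ribosome biogenesis, 21 were lower with AdOVA in both pairs, 3 at most 0.5 times and 2 with the whole pattern, Nhp2 and Npm1. The list medians were -0.81 for AdOVA+TNFa over TNFa and -0.54 for AdOVA over untreated, and 0.81 and 0.56 for AdIkBa-SR over AdOVA with and without TNFa. Nol12, the third gene at most 0.5 times, read 29.2 with AdIkBa-SR+TNFa, 23.9 with AdOVA+TNFa and 202 with TNFa alone, and 125 with AdIkBa-SR, 31.1 with AdOVA and 163 untreated, and thus stayed low with AdIkBa-SR+TNFa. Rrp1 lay at the other end, at 1128 (AdIkBa-SR), 1176 (AdOVA) and 655 (no virus) with TNFa, and 606 (AdIkBa-SR), 861 (AdOVA) and 839 (no virus) without TNFa. Of 22 genes of purine and pyrimidine metabolism, 16 were lower in both pairs, 5 at most 0.5 times and 3 with the whole pattern (Adk, Nme1 and Paics). The others of these 5 were Dck, at 148 with AdIkBa-SR+TNFa, 92.5 with AdOVA+TNFa and 242 with TNFa alone, and 216 with AdIkBa-SR, 49.7 with AdOVA and 198 untreated, and Nme2, at 1681 (AdIkBa-SR), 403 (AdOVA) and 1396 (no virus) with TNFa, and 1635 (AdIkBa-SR), 967 (AdOVA) and 2455 (no virus) without TNFa. Nme2 missed membership only by its AdIkBa-SR signal, 1.69 times AdOVA. Pnp, which degrades purine nucleosides, was higher with AdOVA, at 1946 with AdIkBa-SR+TNFa, 2934 with AdOVA+TNFa and 1816 with TNFa alone, and 2481 with AdIkBa-SR, 4310 with AdOVA and 2071 untreated.

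Of 17 proteins of the spliceosome's small nuclear particles, 13 were lower with AdOVA in both pairs, but Snrpa1 alone was at most 0.5 times in both. Of 13 chaperonin and prefoldin genes 11 were lower and Cct2 alone was at most 0.5 times in both. Of 14 subunits of the vacuolar proton pump 12 were lower and none was at most 0.5 times in both. Among 18 aminoacyl-tRNA synthetases 11 were lower and 2, Farsb and Iars, were at most 0.5 times in both, with list medians of -0.23 with TNFa and -0.55 without it. For 8 one-carbon genes the numbers were 3 lower and 2 at most 0.5 times, Gcsh and Mthfd1. For 14 lipid genes they were 8 and 2, Fabp5 and Lipa. For 10 secreted factors they were 4 and 2, Ccn3 and Olfm1. Of 22 genes of mitochondrial protein import 15 were lower, and of 31 of the citrate cycle and fatty-acid oxidation 19, with none of the import genes and 2 of the others, Idh3a and Cs, at most 0.5 times in both pairs. Of 20 antioxidant genes and 18 of DNA replication, 8 and 8 were lower, and Gsto1 and Fen1 were at most 0.5 times. Of 10 genes of RNA polymerase II 6 were lower, and of 14 of ubiquitin-like conjugation 8, with 0 at most 0.5 times in either list.

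Genes of NF-kB and of interferon were not among the lowered ones. None of 14 measured NF-kB subunits and inhibitors was lower with AdOVA in both pairs and 2 were at least 2-fold higher in both, against 1.97% of all genes, and their medians were 0.92 for AdOVA+TNFa over TNFa and 0.54 for AdOVA over untreated. Of 13 interferon-stimulated genes 11 were at least 2-fold higher in both pairs, with medians of 2.94 with TNFa and 3.00 without it. With AdIkBa-SR over AdOVA the interferon list stood at -2.34 with TNFa and -1.90 without it. Of 6 commonly used control genes 3 were lower in both pairs and none was at most 0.5 times, with medians of -0.17 and -0.06.

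Markers of other cell types were read in the same way, because in bulk RNA fewer cells of a type and less RNA per cell cannot be told apart. None of the 9 measured granulocyte markers was at most 0.5 times with AdOVA in both pairs, but their summed signal moved in the members' direction. It was 25031 with AdIkBa-SR+TNFa, 9635 with AdOVA+TNFa and 12804 with TNFa alone, and 23322 with AdIkBa-SR, 17555 with AdOVA and 19883 untreated, and most of it came from S100a8, S100a9 and Ngp. The 7 erythroid and megakaryocyte markers summed to 9887 with AdIkBa-SR+TNFa, 3443 with AdOVA+TNFa and 6712 with TNFa alone, and to 10095 with AdIkBa-SR, 6173 with AdOVA and 8194 untreated. Nearly all of that sum was Pf4, while Hba-a1 lay at or near 53.5 on every array. The part of these cells in the members' signals was not tested. The 7 macrophage markers summed to between 25127 (untreated) and 32046 (AdOVA), and the 12 dendritic cell markers to 16934 with AdIkBa-SR+TNFa, 10984 with AdOVA+TNFa and 12233 with TNFa, and to 13994 with AdIkBa-SR, 12622 with AdOVA and 14126 untreated. Of the dendritic cell markers, Itgax alone was at most 0.5 times in both pairs. Markers of mast cells (8), progenitors (6), T cells (3), B cells (3) and NK cells (3) had summed signals of at most 2072, 807.9, 387, 264 and 250 on any array.

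Some members lay close to the limits of the rule. Just inside stood Atad3a, at 1.702 times with AdIkBa-SR over AdOVA once its AdOVA signal of 8.80 was raised to 53.5, Pdxk, at 0.499 times with AdOVA+TNFa, and Nap1l1 (1420478_at), at 0.498 times with AdOVA. Just outside stood Nme2, Sec11c, a subunit of the signal peptidase, at 0.504 times with AdOVA, and Smc2, a condensin subunit, at 1.68 times with AdIkBa-SR over AdOVA once its AdOVA signal of 47.4 was raised to 53.5. The ratios of Atad3a and Smc2 are therefore lower bounds set by the floor.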

How the data were processed

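The deposited table holds array intensity, not log-transformed, with 1 value for each probe set on each of 6 arrays. Per the submitters' processing notes MAS5 made these values, and its version is not given. Sample titles gave the groups, and column names matched the arrays to the samples. Gene symbols come from the platform annotation. It gives several symbols to 691 probe sets and none to 1555, and these were not used, nor were 64 controls. Signals were used without rescaling, raised to a floor of 53.5, and compared as ratios or log2 ratios. Probe sets above the floor on at least 2 arrays were called measured.

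With 1 array per group, no test was run and no error between samples can be given. The members and the gene lists were chosen with earlier results of these data known. All 6 signals are given for the genes lowest with AdOVA (20 with both AdOVA signals above the floor, plus up to 5 with both under it), for genes with 2 or more member probe sets, for the 3 at each end of AdIkBa-SR over no virus and of TNFa over untreated, and for members in a list. The code of the rule was run on simulated signals with planted members and little noise, which checks the code and not the members. Alternatives were another floor, scaling, thresholds, pairs or probe sets, and, chosen after seeing the data, leaving out probe sets named _s_at or _x_at. Python 3.11.15, numpy 2.4.6, pandas 2.3.3 and matplotlib 3.10.9 were used.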

Additional observations from a re-analysis of the deposited data

Results flagged for a closer look

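The Bola2 member probe set 1434545_x_at stood out for TNFa ratios that pointed in opposite directions. It was at 1.66 times for AdIkBa-SR+TNFa over AdIkBa-SR and at 0.563 times for TNFa over untreated. The difference between these ratios was not tested, since each rests on 1 array per group. The other measured Bola2 probe sets did not rise with TNFa in AdIkBa-SR cells. Their log2 ratios there were -0.03 (1434543_a_at), -1.29 (1434544_at), -0.15 (1436639_at) and -0.04 (1455776_x_at). The 5′ control probe set for 18S ribosomal RNA, which no comparison used, read 537 with AdIkBa-SR+TNFa, 2601 with AdOVA+TNFa and 176 with TNFa alone, and 340 with AdIkBa-SR, 234 with AdOVA and 120.3 untreated. The AdOVA+TNFa array thus had the highest value, and its part in the members' low signals on that array was not tested.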

How the results depend on the processing

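The number of members depends strongly on the settings. Against 80 as reported, a floor of 30 gave 126 (with all 80 among them), a floor of 100 gave 51, arrays scaled to equal medians gave 166 (with all 80), limits of 0.4 and 2 gave 22, limits of 0.6 and 1.5 gave 223, the pair without TNFa alone 409 and the pair with TNFa alone 251. Quantile normalization gave 103, of which 75 were shared. Requiring all 6 signals above the floor gave 54, and leaving out names in _s_at and _x_at gave 55.

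Of 54 recomputed medians of the 80, 53 had the same sign as reported, 0 the opposite sign, and 1 was at 0, that of AdOVA+TNFa over AdOVA with a floor of 100 (-0.07 as reported). In all, 20 moved by more than the SD between the medians of the same kind of ratio, which is taken over the pairs with and without TNFa, or for TNFa ratios over the 3 virus states. For AdOVA+TNFa over TNFa the median was -1.59 with a floor of 30, -1.21 with a floor of 100, -1.68 with equal medians, -1.56 with quantile normalization and -1.17 as a mean over all probe sets of each gene. For AdOVA over untreated it was -1.47 with a floor of 30, -1.22 with a floor of 100, -1.48 with equal medians and -1.13 over all probe sets. For AdIkBa-SR+TNFa over AdOVA+TNFa, in the order used for AdOVA+TNFa over TNFa, it was 1.32, 1.07, 1.498, 1.36 and 0.97, and for AdIkBa-SR over AdOVA 1.39, 1.13, 1.46, 1.36 and 1.08. For AdOVA+TNFa over AdOVA it was -0.15 with equal medians. Equal medians also moved all measured probe sets, from 0.07 to -0.08 for AdOVA+TNFa over TNFa and from -0.12 to 0.05 for AdIkBa-SR+TNFa over AdOVA+TNFa. The cause was not tested. No replicate could be left out, and no paired analysis was possible because each group has 1 array.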

Other observations

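Fen1, a nuclease of DNA replication that is no member, had signals of 57.7 with AdIkBa-SR+TNFa, 51.9 with AdOVA+TNFa and 561 with TNFa alone, and of 427 with AdIkBa-SR, 71.6 with AdOVA and 220.2 untreated. It was low with AdOVA in both pairs, while with AdIkBa-SR it was low in cells given TNFa and high in cells without it. Sf3b5, a small subunit of the spliceosome, read 315 with AdIkBa-SR+TNFa, 43.7 with AdOVA+TNFa and 307 with TNFa alone, and 218.5 with AdIkBa-SR, 198 with AdOVA and 337 untreated. Its low was thus deep in the pair with TNFa and shallow in the other. Both genes were chosen after their values were seen.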
